A study of Mus musculus with 12 samples.

Results

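The genes of ketone body use were followed in a mouse macrophage line that lacks ACAT1, the mitochondrial thiolase that handles acetoacetyl-CoA. The set held 6 genes, Acat1, Acat2, Oxct1, Bdh1, Bdh2 and Aacs, chosen by their symbols among 18719 genes listed in the count tables. Of these, 5 were listed both for unstimulated and for LPS-stimulated cells, and Bdh1 was listed in neither state and has no value here. The tables list only genes with 4 or more counts in 5 or 6 of a state's libraries.

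J774A.1, the line used, is a mouse macrophage line. The 12 libraries fell into 4 groups of 3, WT unstimulated, ACAT1 KO unstimulated, WT LPS and ACAT1 KO LPS, where LPS is a bacterial ligand of TLR4 given at 100 ng/ml for 2 hours. ACAT1 KO cells had received Cas9 with GFP and a guide to exon 4 of Acat1, and WT cells the same plasmid without a guide. Both were sorted for GFP, plated at several cells per well and expanded into populations that the paper describes as single-cell clones. Whether each line descends from 1 cell cannot be seen here. The spread between replicates is a spread between lines.

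Libraries held 56948593 to 167280149 counts. All 10 macrophage markers examined, such as Adgre1, Csf1r and Lyz2, were listed in both states, at 17.1 to 7413 CPM (each count scaled to its library's total). Of 13 markers of T cells, B cells, fibroblasts and epithelial cells, 3 were listed in both, namely Cd4 (at most 0.198 CPM), Cd79a (at most 0.938 CPM) and Pdgfra, which reached 1.67 CPM in unstimulated and 13.0 CPM in LPS libraries. The inflammatory genes Tnf, Il1b, Nfkbia, Ccl3 and Cxcl10 rose with LPS in both genotypes, from log2 2.94 for Nfkbia in ACAT1 KO cells to log2 9.96 for Cxcl10 in the same cells. The 2 states were counted in separate tables, and differences in handling between them cannot be told apart from LPS.

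Ketone bodies are made in liver mitochondria from acetyl-CoA and burned elsewhere. BDH1 turns beta-hydroxybutyrate into acetoacetate, OXCT1 (also called SCOT) puts coenzyme A on acetoacetate, and ACAT1 splits the resulting acetoacetyl-CoA into a pair of acetyl-CoA molecules; ACAT1 also serves isoleucine breakdown. In the cytosol, AACS activates acetoacetate for lipid synthesis and ACAT2 makes the acetoacetyl-CoA that enters the mevalonate pathway. BDH2 is a cytosolic dehydrogenase first studied for beta-hydroxybutyrate and also linked to siderophore synthesis.

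The edited exon is shown because the whole design rests on it. Exon 4 of the 12-exon Acat1 transcript lies at chr9:53594694-53594789 of GRCm38, on the minus strand, inside the gene's span from 53580522 to 53610382. It is coding throughout, from coding base 230 to 325 of 1272, and its 96 bases are a whole number of codons.
Acat1 exon 4: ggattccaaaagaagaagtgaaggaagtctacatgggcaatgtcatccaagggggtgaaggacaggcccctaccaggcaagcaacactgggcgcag

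Acat2, on chromosome 17 (12942890 to 12960747, minus strand), has a near-identical copy, Acat3, and the start of both coding sequences is shown because counts of Acat2 depend on how reads shared with that copy were assigned. Over 1191 coding bases they differed at 27, an identity of 97.7%, and 11 of the 27 differences fell in the first 120 bases, given here in capitals.
Acat2, coding bases 1 to 120: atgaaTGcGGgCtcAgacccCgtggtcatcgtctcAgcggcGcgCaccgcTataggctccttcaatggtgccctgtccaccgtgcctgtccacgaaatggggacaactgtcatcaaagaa
Acat3, coding bases 1 to 120: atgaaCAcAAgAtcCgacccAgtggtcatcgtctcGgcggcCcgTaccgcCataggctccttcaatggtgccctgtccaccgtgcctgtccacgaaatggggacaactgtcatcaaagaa

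Stretches of 100 bases, the read length, were then compared with all annotated transcripts. Of those in Acat2, 28.9% also stood in Acat3 on the same strand, whereas Acat1, Bdh2 and Aacs shared none with any other gene. On the other strand, 7.21% of those in Acat2 stood in Tcp1, a far higher gene at 381 to 561 CPM. The strand setting of the counts is not known, so the share of such reads in Acat2 cannot be seen. Acat1 and Acat2 were 63.5% identical over 1130 aligned coding bases and shared no such stretch, so reads of the edited gene and of its cytosolic relative can be told apart.

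Levels of the genes were set side by side per kilobase of exon (RPKM, CPM divided by the union of annotated exons in kilobases). In unstimulated WT cells Oxct1 was the highest of the set, at 81.2 ± 7.68 RPKM (SD, n = 3). Acat1 followed at 26.3 ± 4.15, Acat2 at 9.80 ± 0.445 and Aacs at 6.79 ± 0.268 RPKM (SD, n = 3 each). Bdh2 was near the floor of the tables, at 0.0222 ± 0.0147 RPKM (SD, n = 3), from 2 to 12 counts per library. Libraries of neighbouring genes in this order did not overlap.

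In ACAT1 KO cells the order changed at Acat1. Its level was 7.14 ± 0.485 RPKM unstimulated and 5.08 ± 0.195 RPKM after LPS (SD, n = 3 each), below Acat2 in both states, at 9.04 ± 0.356 and 5.79 ± 0.371 RPKM. The ratio of Acat1 to Acat2 in RPKM was 2.08 to 3.03 in unstimulated WT libraries and 0.775 to 0.815 in unstimulated ACAT1 KO libraries. After LPS it was 2.84 to 4.28 in WT and 0.818 to 0.980 in ACAT1 KO. Of the summed RPKM of 8 thiolase genes (Acat1, Acat2, Acat3, Acaa1a, Acaa1b, Acaa2, Hadhb and Scp2), Acat1 made up 25.4% ± 2.97 in unstimulated WT and 8.62% ± 0.455 in unstimulated ACAT1 KO cells (SD, n = 3 each).

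**Figure D1:**
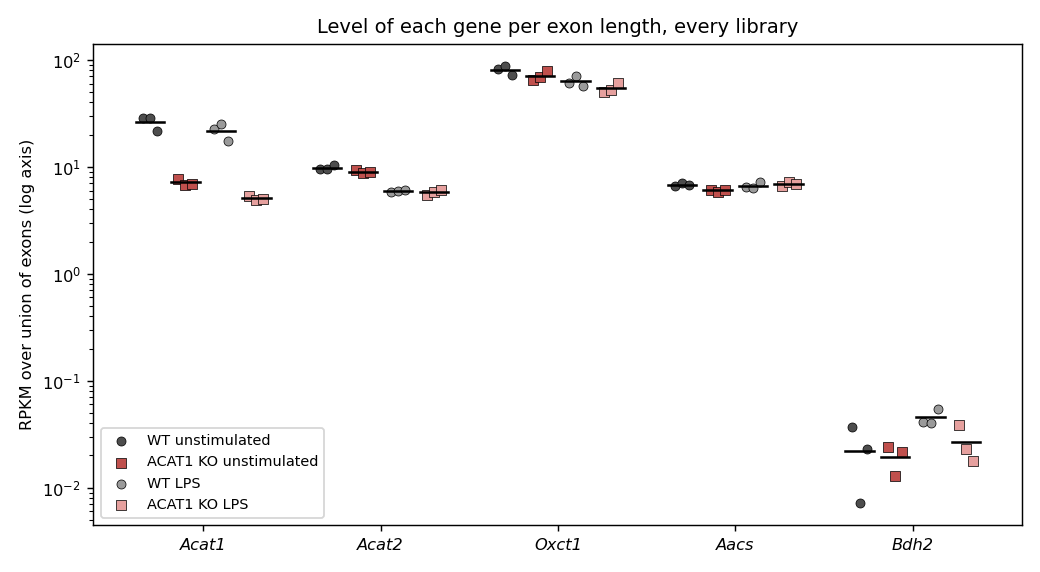
RPKM (log axis) of the 5 listed genes in all 12 libraries, with circles for WT, squares for ACAT1 KO and bars at group means. Oxct1 lies highest, Bdh2 lies far below the others, and only Acat1 shows ACAT1 KO libraries far below WT, at 4.92 to 7.70 against 17.3 to 28.9 RPKM.

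Acat1, the gene targeted by the guide, was at 108, 107 and 80.8 CPM in the unstimulated WT lines and at 28.9, 25.5 and 26.1 CPM in the ACAT1 KO lines. After LPS the WT lines had 85.4, 95.4 and 65.0 CPM and the ACAT1 KO lines 19.9, 18.5 and 18.9 CPM. All ACAT1 KO libraries lay below all WT libraries, and the 3 knockout lines were closer to each other than the 3 WT lines were.

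Without stimulation the ACAT1 KO cells kept 27.4% of the WT level of Acat1 RNA (95% interval 22.3 to 33.6%), a log2 difference of -1.87 (SE 0.124, adjusted p = 0.00876 by edgeR). After LPS they kept 23.6% (19.2 to 29.1%), a log2 difference of -2.08 (SE 0.130, adjusted p = 7.87e-04 by edgeR). Counts of the whole gene cannot show which exons the remaining RNA holds. Adjusted p-values are by the Benjamini-Hochberg method over all genes tested, from the quasi-likelihood test of edgeR. Acat1 was the only tested member called by genotype, 1 of 5 in each state, where 1.91% of all genes tested were called without stimulation and 15.1% after LPS.

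At an unadjusted p under 0.05 in edgeR, 2 of 5 members passed without stimulation (Acat1 and Aacs) and 2 of 5 after LPS (Acat1 and Bdh2), beside 19.7% and 31.3% of all genes. ACAT1 KO and WT libraries did not overlap for 3 of the 5 genes without stimulation and for 2 of 5 after LPS, beside 25.5% and 36.9% of all genes. Without stimulation all 5 log2 differences were negative, with a median of -0.18 against 0.00 over all genes, and after LPS 4 of 5 were.

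**Figure D2:**
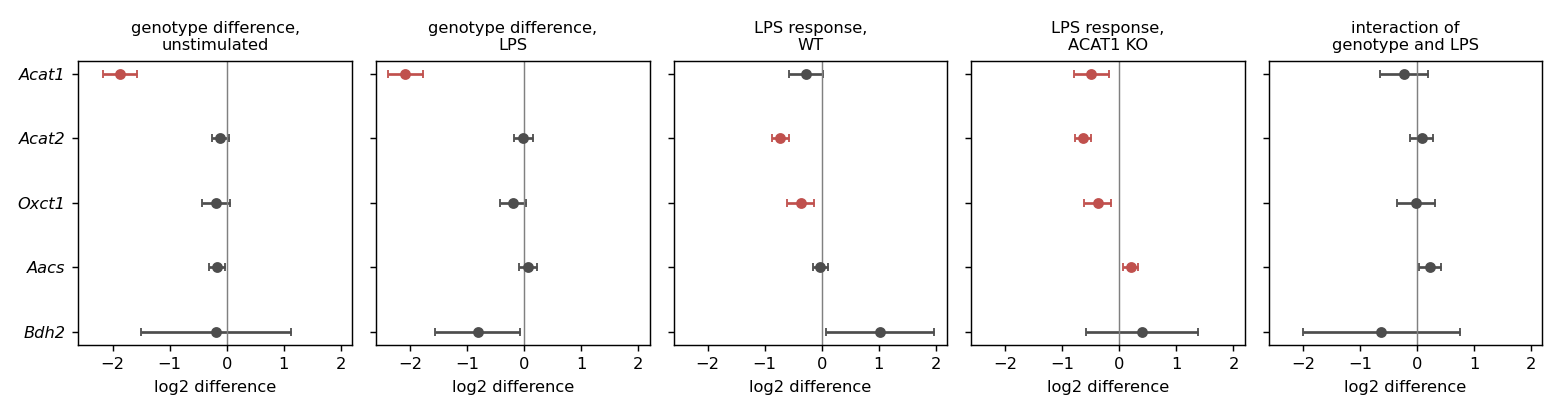
Log2 differences of the 5 listed genes with 95% intervals in the 5 comparisons, red where the adjusted p was under 0.05. Acat1 is called in both genotype comparisons, Acat2 and Oxct1 in both LPS responses, and no gene in the interaction.

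The genes around Acat1 were listed to see whether their RNA differed between genotypes. Edits elsewhere in the genome, or edits that leave RNA levels unchanged, cannot be seen this way and were not tested. Of 14 annotated genes within 250 kb, 8 were counted. None of the 8 was called between genotypes by edgeR without stimulation, beside 1.91% of all genes, with log2 differences from -0.20 to 0.31. The nearest were Npat, a coactivator of histone gene transcription whose nearest end lies 6.18 kb away (log2 -0.01, SE 0.0860, adjusted p = 0.965), and Cul5, a ubiquitin ligase scaffold whose nearest end lies 4.20 kb away (log2 -0.13, SE 0.0613, adjusted p = 0.304). After LPS they were at log2 -0.05 (SE 0.0726) and log2 -0.05 (SE 0.0524), neither called. Cul5 was at 47.0, 52.2 and 50.4 CPM in unstimulated WT and at 45.5, 46.5 and 44.1 CPM in unstimulated ACAT1 KO lines. Its ACAT1 KO libraries lay below its WT libraries without overlap in both states, whereas those of Npat overlapped in both.

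In LPS cells 1 of the 8 was called, beside 15.1% of all genes. It was the processed pseudogene Rps6-ps3 at log2 0.56 (SE 0.143, adjusted p = 0.0359 by edgeR). Reads of a processed pseudogene can also come from its parent gene.

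**Figure D3:**
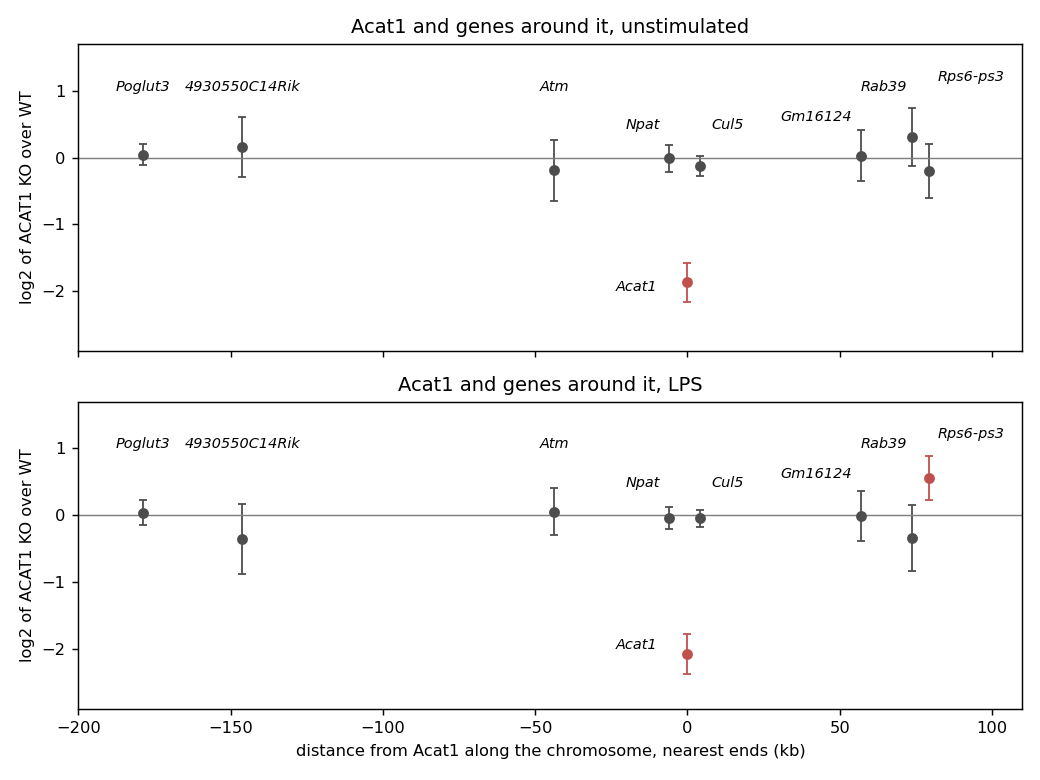
Log2 of ACAT1 KO over WT for Acat1 and the 8 counted genes within 250 kb, against distance from Acat1 in kb between nearest ends, with 95% intervals and red where the adjusted p was under 0.05. Acat1 stands alone near -2, and its neighbours on both sides lie between -0.36 and 0.56.

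Acat2, the cytosolic thiolase, was at 24.2, 24.3 and 26.2 CPM in unstimulated WT lines and at 24.0, 22.3 and 22.7 CPM in unstimulated ACAT1 KO lines. The genotypes lay next to each other without overlap, but the difference was not called, at log2 -0.11 (95% interval -0.26 to 0.05, adjusted p = 0.422 by edgeR). After LPS the WT lines had 14.7, 15.1 and 15.5 CPM and the ACAT1 KO lines 13.7, 14.9 and 15.6 CPM. They overlapped, with a log2 difference of -0.01 (95% interval -0.19 to 0.16, adjusted p = 0.924 by edgeR).

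With LPS Acat2 fell in both genotypes, by more than any other called member. It fell by 0.72 on the log2 scale in WT (SE 0.0655) and by 0.64 in ACAT1 KO cells (SE 0.0654), with adjusted p = 1.65e-06 and 4.08e-06 by edgeR. Libraries of the same number fell by 37.9 to 40.9% in WT and by 31.2 to 42.8% in ACAT1 KO.

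The near copy Acat3 behaved otherwise. It had 609 and 878 counts in unstimulated WT lines 1 and 2 and 1128 in unstimulated ACAT1 KO line 2, and 6 to 39 counts in each of the other 9 libraries. Exons of Acat3 overlap those of Tcp1, a chaperonin subunit, over 571 bases on the other strand. In the same 3 libraries a set of 179 noncoding genes lying mostly in exons of the other strand took 0.101 to 0.119% of counts, against 0.0699 to 0.0741% in the other unstimulated and 0.0829 to 0.0936% in LPS libraries. With a term for these 3 libraries the LPS difference of Acat3 went from log2 -5.57 to log2 -0.62 in WT, while that of Acat2 went from log2 -0.72 to log2 -0.78. The term marks the same 3 libraries in which Acat3 was high, so the smaller difference of Acat3 was fixed in advance. The cause of the high Acat3 counts was not tested.

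Oxct1, which hands coenzyme A to acetoacetate and lies on chromosome 15 (4026383 to 4155344, plus strand), was at 307, 325 and 269.6 CPM in unstimulated WT lines and at 241, 254 and 291 CPM in unstimulated ACAT1 KO lines. After LPS it was at 227, 260.4 and 212 CPM in WT and at 184, 195 and 226 CPM in ACAT1 KO lines. The genotypes overlapped in both states, and neither difference was called. It was log2 -0.19 without stimulation (95% interval -0.43 to 0.05, adjusted p = 0.364 by edgeR) and log2 -0.19 after LPS (95% interval -0.42 to 0.04, adjusted p = 0.239 by edgeR).

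Oxct1 fell with LPS by similar amounts in each line, by 20.0 to 25.9% in WT and by 22.4 to 23.7% in ACAT1 KO. The log2 change was -0.37 in WT (SE 0.109, adjusted p = 0.0126 by edgeR) and -0.38 in ACAT1 KO cells (SE 0.109, adjusted p = 0.00971 by edgeR). The WT call was lost at adjusted p = 0.0679 with the term for the 3 libraries rich in other-strand counts, at 0.0556 without WT LPS replicate 3 and at 0.0506 without WT unstimulated replicate 2. Exons of Oxct1 overlap 467 bases of the noncoding BC037032 on the other strand, which was counted at 0.124 to 1.03% of the CPM of Oxct1, highest in the same 3 libraries.

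Relative to Acat1 per kilobase, Oxct1 stood 2.87 to 3.39 times higher in unstimulated WT and 8.46 to 11.3 times higher in unstimulated ACAT1 KO libraries.

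Aacs, the cytosolic acetoacetyl-CoA synthetase, lies on chromosome 5 (125475814 to 125517410, plus strand). It was at 25.3, 27.3 and 25.9 CPM in unstimulated WT and at 23.5, 22.5 and 23.5 CPM in unstimulated ACAT1 KO lines. The genotypes did not overlap, and the difference missed the threshold, at log2 -0.17 (95% interval -0.31 to -0.02, adjusted p = 0.20 by edgeR). After LPS it was at 25.1, 24.6 and 27.6 CPM in WT and at 25.7, 27.8 and 26.4 CPM in ACAT1 KO lines, which overlapped (log2 0.07, 95% interval -0.09 to 0.23).

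Aacs was the only member called higher with LPS, and in ACAT1 KO cells alone, at log2 0.20 (SE 0.0621, adjusted p = 0.0155 by edgeR) against log2 -0.02 (SE 0.0622, adjusted p = 0.781) in WT. The difference between these responses was not called, at log2 0.22 (SE 0.0879, adjusted p = 0.456 by edgeR's test of the interaction). Lines of ACAT1 KO rose by 9.19, 23.5 and 12.1%, and WT lines changed by -0.992, -10.1 and 6.74%. The call was lost under another scaling and without single libraries. Under upper-quartile normalization, which moved the median of all genes to log2 -0.23 in WT and -0.17 in ACAT1 KO, Aacs was at log2 -0.23 in WT (adjusted p = 0.00662) and 0.05 in ACAT1 KO (adjusted p = 0.510). Without ACAT1 KO LPS replicate 2 or ACAT1 KO unstimulated replicate 2 the adjusted p was 0.0668 or 0.0576.

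Bdh2, on chromosome 3 (135281221 to 135304426, plus strand), was counted 11, 2 and 12 times in unstimulated WT and 14, 5 and 11 times in unstimulated ACAT1 KO libraries. After LPS it had 15, 17 and 35 counts in WT and 14, 11 and 8 in ACAT1 KO libraries. WT LPS libraries, at 0.172 to 0.231 CPM, lay above all 9 others, at 0.0305 to 0.163 CPM. No comparison of Bdh2 was called in the fits of all libraries by edgeR without a block. The LPS response in WT was log2 1.02 (95% interval 0.07 to 1.97, adjusted p = 0.0627 by edgeR) and the genotype difference after LPS log2 -0.81 (95% interval -1.56 to -0.07, adjusted p = 0.130 by edgeR). With a replicate block that pairs libraries of the same number the WT response was called (adjusted p = 0.0478 by edgeR), as it was with limma-voom (0.0375) and without WT unstimulated replicate 1 (0.0247).

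Read together by LPS, 2 of 5 members were called lower and 0 higher in WT, where 57.4% of all genes tested were called in either direction. In ACAT1 KO cells 3 were called lower and 1 higher, where 60.7% of all genes were called. Libraries of the 2 states did not overlap for 3 of 5 members in WT and for 4 of 5 in ACAT1 KO, beside 61.0% and 67.8% of all genes. At an unadjusted p under 0.05 in edgeR, 3 of 5 passed in WT and 4 of 5 in ACAT1 KO, beside 61.5% and 64.7% of all genes.

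Acat1 itself fell with LPS in the knockout, by 0.49 on the log2 scale (SE 0.139, adjusted p = 0.00881 by edgeR). In WT the change was log2 -0.27 (SE 0.137, adjusted p = 0.113), and libraries of the 2 states overlapped. Replicate numbers in the labels were taken to mark the same line in both states, which the labels do not state. By line, Acat1 fell by 21.2, 10.9 and 19.5% in WT and by 31.2, 27.6 and 27.8% in ACAT1 KO. With the line as a replicate block the WT change was log2 -0.28 and was called, at adjusted p = 0.00136 by edgeR. It was also called without WT LPS replicate 2 (adjusted p = 0.0356) and without WT unstimulated replicate 3 (adjusted p = 0.0215).

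The percent fall of Acat1 was larger in each ACAT1 KO line than in each WT line. The test of that difference was not called, at log2 -0.22 (SE 0.195, adjusted p = 0.857 by edgeR) and adjusted p = 0.214 with the block. With 3 lines against 3, an exact permutation test cannot go below p = 0.10.

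The interaction of genotype and LPS was called for 0 of 5 members by edgeR, and 0.187% of all genes were called, 0.139% lower and 0.0484% higher. Before adjustment 1 member, Aacs, passed a threshold of 0.05 in the interaction test of edgeR, beside 8.92% of all genes. DESeq2 called 0 of the 4 members for which it gave an adjusted p.

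**Figure D4:**
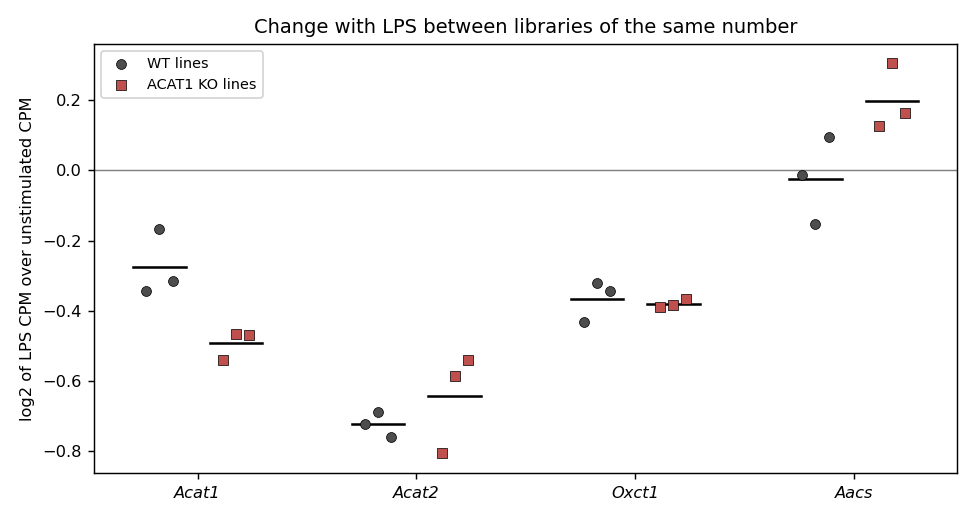
Log2 of CPM after LPS over unstimulated CPM between libraries of the same number, for Acat1, Acat2, Oxct1 and Aacs, with circles for WT lines, squares for ACAT1 KO lines and bars at means. Acat1, Acat2 and Oxct1 lie below 0 in all 6 lines, whereas Aacs lies between -0.15 and 0.30.

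Ketone bodies enter and leave cells through monocarboxylate transporters. Of 12 genes of ketogenesis, ketone transport and sensing, 8 were counted. Among the others, Hmgcll1, Oxct2a and Oxct2b were not listed. Without stimulation 1 of 8 was called lower in ACAT1 KO cells and 0 higher, beside 1.17% lower and 0.742% higher among all genes, with a median log2 of 0.14 against 0.00 over all genes. The called gene was Slc16a7, the transporter MCT2, at 18.4, 19.5 and 18.3 CPM in WT and 12.4, 13.7 and 12.3 CPM in ACAT1 KO lines (log2 -0.54, SE 0.0788, adjusted p = 0.0390 by edgeR).

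Slc16a7 was again the only gene of the list called after LPS, where 9.12% of all genes were called lower, at 8.79, 10.4 and 10.4 CPM in WT and 6.91, 7.64 and 7.13 CPM in ACAT1 KO lines (log2 -0.43, SE 0.0959, adjusted p = 0.0237 by edgeR). The genotypes did not overlap in either state. In each state the call was lost without any of 5 of its 6 libraries. Over all alternatives log2 was from -0.59 to -0.51 without stimulation and from -0.51 to -0.38 after LPS. The unstimulated call was also lost with the replicate number as a block, which joins WT and ACAT1 KO lines that are not paired. Slc16a3, which exports lactate, and Slc16a1, the main importer of ketone bodies, were at log2 1.02 (adjusted p = 0.0618) and log2 -0.23 (adjusted p = 0.196) in unstimulated cells.

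With LPS 2 of the 8 rose and 3 fell in WT, and 1 rose and 3 fell in ACAT1 KO cells, so that 5 and 4 of 8 were called beside 57.4% and 60.7% of all genes. Hcar2, the receptor for beta-hydroxybutyrate and niacin, rose from 7.77, 9.13 and 9.77 to 49.9, 57.8 and 50.9 CPM in WT and from 18.2, 18.7 and 12.5 to 60.6, 57.7 and 44.7 CPM in ACAT1 KO lines. That is log2 2.57 (SE 0.166) in WT and log2 1.72 (SE 0.160) in ACAT1 KO cells, both called by edgeR. All ACAT1 KO lines started above all WT lines, by log2 0.90 (SE 0.176, adjusted p = 0.0591), and the libraries of the genotypes overlapped after LPS. The difference between the LPS responses was log2 -0.85 (SE 0.223, adjusted p = 0.174 by edgeR), not called, though DESeq2 and the replicate block called it.

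Slc16a6, a ketone body exporter of liver, fell by 1.17 and 1.30 on the log2 scale in WT and ACAT1 KO cells. Slc16a7 fell by 0.92 and 0.82. Bsg, a chaperone of some monocarboxylate transporters, was called higher in WT alone (log2 0.20, SE 0.0576, adjusted p = 0.0102 by edgeR). That call was lost under 4 alternatives, among them upper-quartile normalization, which put Bsg at log2 -0.0077.

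Other thiolases and their partners in fatty acid oxidation were compared next, 6 genes, all counted. No gene was called without stimulation by edgeR at the adjusted threshold, beside 1.91% of all genes. At an unadjusted p under 0.05, 1 gene passed, beside 19.7% of all genes, and DESeq2 called 1. It was Acaa2, the mitochondrial 3-ketoacyl-CoA thiolase, at 19.0 ± 0.676 CPM in WT and 14.6 ± 0.454 CPM in ACAT1 KO cells (SD, n = 3 each), log2 -0.37 (SE 0.0696, adjusted p = 0.0532 by edgeR). After LPS Acaa2 was the only 1 of the 6 called, and lower in ACAT1 KO cells, beside 15.1% of all genes called in either direction. It was at 18.2 ± 0.896 CPM in WT against 14.6 ± 0.772 CPM in ACAT1 KO cells (SD, n = 3 each), log2 -0.30 (SE 0.0711, adjusted p = 0.0298 by edgeR). That call was lost without any of 5 of the 6 LPS libraries, with log2 from -0.34 to -0.26 over all alternatives.

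With LPS 2 of the 6 were called higher and 1 lower in WT, and 1 higher and 1 lower in ACAT1 KO cells, beside the same 57.4% and 60.7% of all genes. Hadhb, the other subunit of the trifunctional protein, was called higher in WT (log2 0.21, SE 0.0694, adjusted p = 0.0216 by edgeR), a call lost under 5 alternatives, among them upper-quartile normalization, which put it at log2 -0.00047. Hadha of the trifunctional protein was called higher in WT and ACAT1 KO cells (log2 0.31 and 0.26), a call lost under upper-quartile normalization. Scp2, which encodes a peroxisomal thiolase and a sterol carrier, fell by 0.28 and 0.32 on the log2 scale.

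Acetoacetyl-CoA made by ACAT2 feeds the mevalonate pathway, so 17 genes of sterol synthesis and its control were listed, of which 16 were counted. In unstimulated ACAT1 KO cells 2 of 16 were called lower and 0 higher, beside 1.17% and 0.742% of all genes, and 15 of 16 log2 differences were negative, with a median of -0.32 against 0.00 over all genes. The 2 were Hmgcs1, which joins acetyl-CoA to acetoacetyl-CoA in the cytosol (log2 -0.72, SE 0.124, adjusted p = 0.0455 by edgeR), and Fdft1, squalene synthase (log2 -0.39, SE 0.0703, adjusted p = 0.0499 by edgeR). Both calls were lost when any of the 6 libraries was left out. Both calls were also lost with the replicate number as a block, which joins WT and ACAT1 KO lines that are not paired. That of Fdft1 was lost under 11 of 15 alternatives, among them limma-voom and both other normalizations. Over alternatives other than libraries left out, 0 to 10 of the 16 were called, with 10 under DESeq2.

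Hmgcs1 was at 45.5, 64.6 and 53.6 CPM in unstimulated WT and 34.6, 32.1 and 31.7 CPM in ACAT1 KO lines. After LPS 3 of 16 were called lower and 0 higher, beside 9.12% and 5.93% of all genes, and DESeq2 called 5. They were Sqle, squalene epoxidase (log2 -0.99, SE 0.181, adjusted p = 0.0126 by edgeR), Srebf2, the transcription factor of the pathway (log2 -0.30, SE 0.0641), and Mvd, which completes isopentenyl diphosphate (log2 -0.37, SE 0.0873). Sqle was at 157, 101 and 90.3 CPM in WT and 57.4, 57.3 and 58.1 CPM in ACAT1 KO lines after LPS, without overlap. With each LPS library left out in turn, 0 to 4 genes of the list were called, and the call of Sqle was lost without ACAT1 KO LPS replicate 2. The calls of Srebf2 and Mvd were each lost without any of 4 libraries, ACAT1 KO LPS replicates 1, 2 and 3 and WT LPS replicate 2. Acat2, at the entry of this pathway, was called in neither state.

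With LPS 10 of 16 sterol genes were called lower and 2 higher in WT, and 11 lower and 3 higher in ACAT1 KO cells, beside 28.0% lower and 29.3% higher among all genes in WT and 31.2% lower and 29.5% higher in ACAT1 KO. Medians were log2 -0.43 and log2 -0.46 against -0.02 and -0.03 over all genes. Acat2, counted apart from this list, fell by amounts in the same range. Dhcr7, which makes cholesterol in the last step, fell by 1.21 and 1.31 on the log2 scale, and Insig1, which holds SREBP in the endoplasmic reticulum, by 0.98 and 0.68. Ggps1, which makes geranylgeranyl diphosphate, rose by log2 0.91 and 0.87. Srebf2 was the other gene called higher in WT, at log2 0.38. Calls of Dhcr7 and Ggps1 in both genotypes, and of Insig1 in WT, were kept under every alternative tried.

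**Figure D5:**
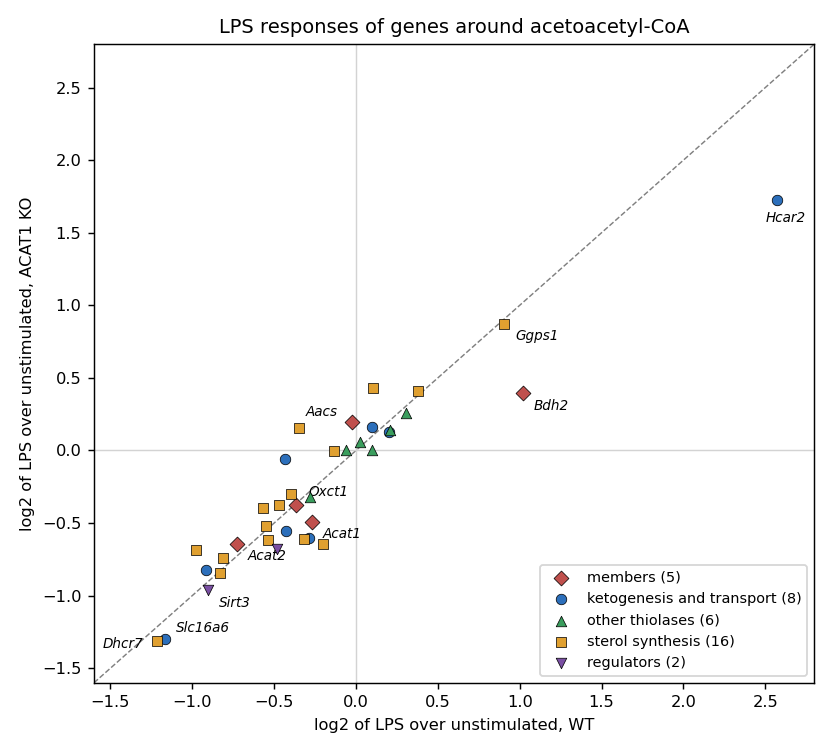
Log2 of LPS over unstimulated in WT (x axis) and ACAT1 KO (y axis) for the 5 listed members and 4 gene lists, with the number of genes tested in brackets and a dashed line of equal response. Hcar2, at 2.57 and 1.72, lies farthest below that line.

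The promoter of Acat2 is shown because Acat2 moved in the direction of most sterol genes with LPS, and because these are known targets of SREBP. RefSeq gave windows from 250 bases before to 50 bases after the start for 5 of the 6 members, and none for Acat1, whose promoter was not searched. The letters CACCCCAC, a core of sterol regulatory elements, were searched on both strands. Among the 5 members with a window they stood in that of Acat2 only, 181 bases before the start, in capitals.
Acat2 promoter, chr17:12960676-12960975 of GRCm38.p6, minus strand: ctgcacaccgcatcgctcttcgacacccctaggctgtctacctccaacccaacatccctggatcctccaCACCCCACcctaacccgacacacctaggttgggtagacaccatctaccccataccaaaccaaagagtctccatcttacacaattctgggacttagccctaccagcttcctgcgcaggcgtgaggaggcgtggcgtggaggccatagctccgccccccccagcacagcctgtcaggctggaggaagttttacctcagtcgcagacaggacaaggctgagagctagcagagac

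The core was in 2.87% of 32851 windows, and in 1 of the 11 sterol genes that had a window, Hmgcs1. A match describes letters only.

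Genes whose CPM most resembled each member over the 12 libraries were found by the root mean square difference of centred log2 CPM among 11960 genes, as a description with no test. For Acat1, itself varying by 1.02 around its mean, they were Cytip, Edil3 and Hebp1, at 0.22 to 0.28. For Acat2 they included Pcyt2 and Dhodh, at 0.07 each. For Oxct1 they were Poglut2, Stradb and Mcm3, at 0.07 to 0.08, and for Aacs, which varied by only 0.09, Rsbn1l, Gk and Sltm, at 0.06 to 0.07. The low counts of Bdh2 left no close match, at 0.36 and more for Upk1a, Mfsd6l and Ctsh.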

How the data were processed

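RNA-seq of unstimulated and LPS-treated J774A.1 macrophages covered 3 WT and 3 ACAT1 KO lines, and libraries were grouped by genotype, treatment and number in their labels. Per the paper's methods and the submitters' processing notes, the authors used Trimmomatic 0.33 for trimming, HISAT2 for alignment (GRCm38), and then StringTie and Ballgown. The authors deposited raw whole-number counts per gene, in a table for each state. The step that gave whole counts, its strand setting and its treatment of shared reads are not given in the sources used here. The same tables hold 12 columns of the authors' log2 values and their fold changes and p-values, none of which were used.

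After removal of 59 and 57 repeated entries the tables held 17544 genes (unstimulated) and 17874 genes (LPS), 16699 of them in both. Pairs of libraries of a group differed by more than sampling noise (chi-square per degree of freedom 31.3 to 267 over 12 pairs). Libraries held 56948593 to 167280149 counts, and Bdh2 had 2 to 35 counts in each. Replicates are separate clonal lines according to the paper.

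Counts were tested with edgeR 4.0.16 in R 4.3.3 (filterByExpr, TMM, quasi-likelihood test, two-sided, Benjamini-Hochberg adjusted p under 0.05 over all genes tested). Genotypes were compared within each state in fits of 6 libraries. LPS responses and the interaction came from a fit of all 12 over genes of both tables. CPM and RPKM values are on the scale of the 12-library fit. Exons, lengths and coordinates are from the GENCODE annotation of GRCm38. Promoters are RefSeq's of GRCm38.p6. Sequences were compared with Biopython 1.88 and scripts in Python 3.11.15. The tests were first tried on simulated counts, with less spread than the unstimulated and 12-library fits had and no batch effect. That trial does not show how the tests perform at the spread of these libraries.

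Alternatives were DESeq2 1.42.0, voom of limma 3.58.1, upper-quartile or relative log expression scaling, leaving the low-count filter out, a minimum of 10 counts per library, robust dispersion, the replicate number or line as a block, a term for 3 unstimulated libraries rich in other-strand counts, other sets of libraries in the fit, each library left out, and lengths of the longest transcript. The block together with that term was added after the data were seen.

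The main fits held no block and did not pair libraries. For LPS responses and the interaction, libraries of the same number in both states were taken as paired only where a replicate block is named. That pairing was inferred from deviations from group means. All 6 same-numbered pairs correlated at 0.139 to 0.454 over 11961 genes with a mean of at least 1 CPM, against -0.344 to 0.0976 for other numbers. Over 16535 genes the same-numbered pairs were at 0.0913 to 0.307. Between WT and ACAT1 KO libraries of the same state, which are different lines, the 11961 genes gave -0.412 to 0.745 for the same number. Other numbers there gave -0.862 to 0.676. Correlations above 0.454 thus also arose between different lines, and the pairing by line remains an inference. Numbers do not pair WT with ACAT1 KO lines. In the genotype comparisons the block was the replicate number alone, so block results there do not test a pairing by line.

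Members and gene lists were chosen with earlier results of these data known. The members are named in every comparison, of each list at most 5 called genes with the smallest p, counted genes within 250 kb of Acat1, and genes overlapping a member on the other strand. Outside this rule and after their values were seen, Slc16a1 and Slc16a3 are named as known carriers, Acat3 as a near copy, and Hcar2 and Acaa2 where they missed the threshold. Some genes of the lists are not reported here by name.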

Additional observations from a re-analysis of the deposited data

How the results depend on the processing

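Over all genes, 314 were called between unstimulated genotypes, 1721 with DESeq2 and 1353 with all 12 libraries in 1 fit. With the term for the 3 libraries rich in other-strand counts 664 were called, and 475 with at least 10 counts in every library. With the replicate number as a block, which joins WT and ACAT1 KO lines that are not paired, 151 were called. Leaving out each library gave 7 to 522 calls there and 867 to 2245 after LPS (2481 with all). For the interaction, 31 genes were called, 333 with DESeq2, 11 with limma-voom, 288 with the replicate block, 69 with the term, 457 with block and term together, and 2 to 41 when each library was left out. Counts of LPS responses moved by under 1.5 times, but upper-quartile normalization took the share of higher calls from 51.1 to 35.2% in WT and from 48.5 to 37.4% in ACAT1 KO.

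Acat1 was called lower in ACAT1 KO cells under every alternative in both states (log2 -1.99 to -1.80 and -2.21 to -1.95), and within the 3 libraries rich in other-strand counts and the 3 others its unstimulated difference was log2 -2.06 and -1.55, values with no test. The pairing by line, as replicate block, changed the calls of Acat1 and Bdh2 in the WT response (log2 -0.28 and 1.09) and no other member's. Uncalled small differences changed sign. Acat2 between genotypes after LPS went to log2 0.016 under upper-quartile normalization and spanned -0.055 to 0.036 over libraries left out, positive without ACAT1 KO LPS replicate 1 or WT LPS replicate 3. The interaction of Oxct1 went to log2 0.049 under upper-quartile normalization and spanned -0.10 to 0.072 over libraries left out. Bdh2 between unstimulated genotypes spanned -0.55 to 0.26 and Aacs with LPS in WT -0.075 to 0.010 when libraries were left out. Of called differences, upper-quartile normalization changed the sign of 2 in the WT response to LPS, Bsg at log2 -0.0077 and Hadhb at -0.00047. Bdh2 could not be fitted where at least 10 counts were required, and DESeq2 gave it no adjusted p between genotypes or for the interaction. Causes were not tested. In all, 438 of 467 alternative results of members kept direction and side of the threshold, 14 changed sign, 9 gained and 6 lost a call, and 12 of 100 levels moved by more than the spread, all of them with lengths of the longest transcript.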

Other observations

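The symbols ACAT1 and ACAT2 were once also used for the sterol O-acyltransferases, enzymes that store cholesterol as esters and are now Soat1 and Soat2. Neither was called between unstimulated genotypes (log2 -0.15 for Soat1, adjusted p = 0.272, and 0.01 for Soat2, adjusted p = 0.988, by edgeR). After LPS Soat1 was called lower in ACAT1 KO cells (log2 -0.26, SE 0.0661, adjusted p = 0.0344 by edgeR), a call lost under 6 of 14 alternatives. With LPS the log2 change of Soat1 was -0.46 in WT and -0.59 in ACAT1 KO cells, and that of Soat2 -1.38 and -2.04, calls kept under every alternative. Of 5 regulators of ketone metabolism, Sirt3, the mitochondrial deacetylase known to act on ketogenic enzymes, and Foxo1 were tested in all comparisons, Ppara was listed only for unstimulated cells, and Ppargc1a and Fgf21 were not listed. Sirt3 fell with LPS by 0.90 and 0.96 and Foxo1 by 0.48 and 0.68 on the log2 scale, and Foxo1 was called lower in ACAT1 KO cells after LPS (log2 -0.42, SE 0.103, adjusted p = 0.0318 by edgeR), a call lost without any of 5 of the 6 LPS libraries.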
